A study of Mus musculus with 24 samples.

Results

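The cell cycle and proliferation genes are 46 genes that dividing cells switch on, from the loading of the replication machinery onto DNA to the separation of the daughter cells. They were taken by symbol from an array that carried probes for 45616 gene names, 22911 of them gene symbols, and each gene was read by its brightest probe. The genes were measured in colon tissue of C57BL/6J mice that all received azoxymethane, a colon carcinogen, at 10 mg/kg, then 3 cycles of 1.5% dextran sulfate sodium, an agent that injures the colon lining. Males (M), females (F) and ovariectomized females (F(OVX)) were fed a low fat diet (LFD, 10% of kcal from fat) or a high fat diet (HFD, 45%) for 14 weeks, arrived at 7 weeks of age, and had their colons taken 75 days after the carcinogen. By the study's methods, the M and F mice had sham surgery. Each of M, F and F(OVX) was represented by 4 arrays with LFD and 4 with HFD. Mice were picked for the arrays by a body weight near the mean of their group, and nothing in the labels ties an array to an animal. No group went without the carcinogen and dextran sulfate sodium, so that every difference is between treated animals. RNA came from colon tissue, in which epithelial cells, lymphocytes, muscle and any tumor tissue are mixed. The study's methods name the distal colon as the source of the array tissue. All values are log2 signals of a probe after quantile normalization over the 24 arrays.

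All 46 genes had probes. Of these, 44 were well above background on all 24 arrays and Ndc80 on 23, and these 45 were tested in every comparison. Ccne2, a cyclin of the start of S phase, was well above background on 0 of 24 arrays and has no test. A gene passed the threshold, which is that of the study, when limma gave an unadjusted p below 0.05 together with a change of 1.5-fold or more, and the Benjamini-Hochberg adjusted p over all genes is given beside it.

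A cell that is about to copy its DNA loads the Mcm2 to Mcm7 helicase onto replication origins with Cdc6 and Cdt1, a step that Gmnn blocks once S phase has begun. During S phase Pcna clamps the polymerases to DNA while Rrm1, Rrm2, Tyms and Tk1 supply nucleotides. Entry into mitosis is driven by Cdk1 with the cyclins Ccna2, Ccnb1 and Ccnb2, and the kinases, checkpoint proteins and motors of the spindle then part the chromosomes. In the colon these genes are active in the cells of the lower crypt, which divide continuously to renew the lining, and they are widely used as marks of proliferation in tissue. Many genes of replication carry E2F sites in their promoters, while many of mitosis carry CCAAT boxes and a cell cycle homology region (CHR), the element bound by the DREAM and MuvB complexes.

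The CHR and the E2F sites largely divided the origin licensing genes from those of mitosis, and the CCAAT box did not. RefSeq promoters (GRCm38.p6, 250 bases before to 50 after the start) were matched by symbol for 38 of the 46 genes, and no entry was given for Aurkb, Ccna2, Ccne2, Foxm1, Gmnn, Kif20a, Mcm4 and Tpx2. The letters searched on both strands were TTTGAA and TTCGAA for the CHR, CCAAT for the CCAAT box, and TTTCCCGC, TTTCGCGC, TTTGCCGC and TTTGGCGC for E2F, and matches can share letters (TTCGAA is its own reverse complement, and E2F forms can overlap). A CHR was found in 7 of 8 promoters of mitotic kinases, checkpoint and proteolysis genes, in 7 of 9 of kinetochore, spindle and cytokinesis genes and in both chromosome proteins, Mki67 and Top2a. It was found in 2 of 7 origin licensing genes and in 0 of 5 genes of DNA synthesis and nucleotide supply. An E2F form was found in 6 of 7 origin licensing genes, in Cdk1, and in 0 of 17 promoters of the mitotic kinases and of the kinetochore and spindle genes. It was also found in 0 of 5 genes of DNA synthesis and nucleotide supply and in 0 of 3 transcription factors. A CCAAT box was found in 5 of 7 origin licensing genes. The mitotic kinases, checkpoint and proteolysis genes held it in 7 of 8, and the kinetochore, spindle and cytokinesis genes in 7 of 9. Over all 38 genes, 55.3% held a CHR, 73.7% a CCAAT box and 18.4% an E2F form, against 21.7%, 41.1% and 2.6% of the 27025 genes of the table, in which a gene with several promoters counts once. A match describes letters in this window and shows no binding. The 250 bases before the start are printed for 3 genes of mitosis (Mki67, Top2a and Cdc20), for Cdk1, which held all 3 elements, and for 2 origin licensing genes (Mcm6 and Mcm5), since these sets of genes also parted in the arrays of F. Capitals mark CHR, CCAAT and E2F letters on either strand (ATTGG is CCAAT and TTCAAA is TTTGAA read from the other strand).
Mki67 (chr7:135716380-135716629, minus strand): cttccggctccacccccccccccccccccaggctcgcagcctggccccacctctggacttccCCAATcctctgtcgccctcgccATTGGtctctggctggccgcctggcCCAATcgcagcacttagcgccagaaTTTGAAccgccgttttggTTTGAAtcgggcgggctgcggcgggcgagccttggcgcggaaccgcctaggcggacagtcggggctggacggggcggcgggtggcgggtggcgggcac
Top2a (chr11:99024190-99024439, minus strand): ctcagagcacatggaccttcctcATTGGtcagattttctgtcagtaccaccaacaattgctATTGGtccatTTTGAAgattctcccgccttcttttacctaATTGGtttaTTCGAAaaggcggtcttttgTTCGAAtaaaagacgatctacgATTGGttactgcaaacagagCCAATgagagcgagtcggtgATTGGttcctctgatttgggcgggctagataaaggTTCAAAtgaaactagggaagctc
Cdc20 (chr4:118437344-118437593, minus strand): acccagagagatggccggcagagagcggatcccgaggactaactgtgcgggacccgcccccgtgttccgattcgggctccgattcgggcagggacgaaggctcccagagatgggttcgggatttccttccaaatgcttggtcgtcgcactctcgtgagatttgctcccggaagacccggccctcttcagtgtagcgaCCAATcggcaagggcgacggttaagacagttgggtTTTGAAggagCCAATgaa
Cdk1 (chr10:69352913-69353162, minus strand): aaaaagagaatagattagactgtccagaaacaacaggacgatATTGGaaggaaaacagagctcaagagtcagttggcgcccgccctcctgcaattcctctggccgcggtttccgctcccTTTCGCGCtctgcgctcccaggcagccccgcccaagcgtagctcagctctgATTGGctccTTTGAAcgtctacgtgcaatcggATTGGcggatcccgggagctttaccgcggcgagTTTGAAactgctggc
Mcm6 (chr1:128359706-128359955, minus strand): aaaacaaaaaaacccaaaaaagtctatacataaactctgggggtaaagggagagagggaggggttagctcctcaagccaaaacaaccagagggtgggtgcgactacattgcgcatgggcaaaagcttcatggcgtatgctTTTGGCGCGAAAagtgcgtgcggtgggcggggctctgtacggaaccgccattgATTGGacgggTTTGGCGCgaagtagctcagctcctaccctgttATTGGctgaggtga
Mcm5 (chr8:75109259-75109508, plus strand): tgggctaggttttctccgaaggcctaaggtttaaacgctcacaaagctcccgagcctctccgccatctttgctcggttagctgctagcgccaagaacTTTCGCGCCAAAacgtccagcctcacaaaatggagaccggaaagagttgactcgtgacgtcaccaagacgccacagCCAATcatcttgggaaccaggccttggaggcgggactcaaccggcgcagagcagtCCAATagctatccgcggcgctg
In the Mki67 promoter, the 2 CHR matches lay 116 and 98 bases before the start, downstream of 3 CCAAT boxes. In Mcm6, 2 overlapping E2F forms lay 110 and 106 bases before the start, and the third lay 47 bases before it.

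Both M + LFD arrays of replicates 1 and 2 stood apart from the other 22 in genes outside the cell cycle. Hoxb13, which marks the distal end of the colon, was at 2.18 and 5.05 on them and between 12.61 and 14.87 on the others. The mean of 5 Hox genes of more proximal gut was 9.47 and 8.90 on these 2 arrays, and 6.74 or lower on the others. The diet comparison in M and the comparisons between groups that use them are given with and without them. Each of the 3 slides held the arrays of 1 sex or surgery, so that slide and sex or surgery cannot be told apart. Both diets lay on every slide, but LFD arrays were always in row 1 and HFD arrays in row 2. Diet and row on the slide therefore cannot be told apart. The share of probes well above background ran from 40.5% to 61.9% over the arrays. The p-values measure the spread between arrays of a group.

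The mean level of the cell cycle genes varied widely from array to array. The mean log2 signal of the 44 genes was 9.44, 8.64, 10.59 and 10.08 on the M + LFD arrays and 8.25, 9.74, 9.25 and 8.75 on the M + HFD arrays. It was 9.58, 10.19, 10.21 and 10.21 in F + LFD and 9.58, 9.94, 9.71 and 10.54 in F + HFD. In ovariectomized females it was 9.95, 8.90, 9.81 and 9.09 with LFD and 9.73, 9.49, 10.54 and 9.02 with HFD. The highest array, M + LFD replicate 3, lay 2.33 above the lowest, M + HFD replicate 1, which is a 5.04-fold difference, and every LFD group overlapped its HFD group. In colon tissue, fewer dividing cells and less of these RNAs per cell cannot be told apart. Over the arrays, single genes ranged by 1.36 (Pcna) to 3.45 (Rrm2, the regulated subunit of ribonucleotide reductase). The median SD within a group was 0.71 for these genes and 0.30 for the 16786 other genes that were well above background on every array.

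**Figure D1:**
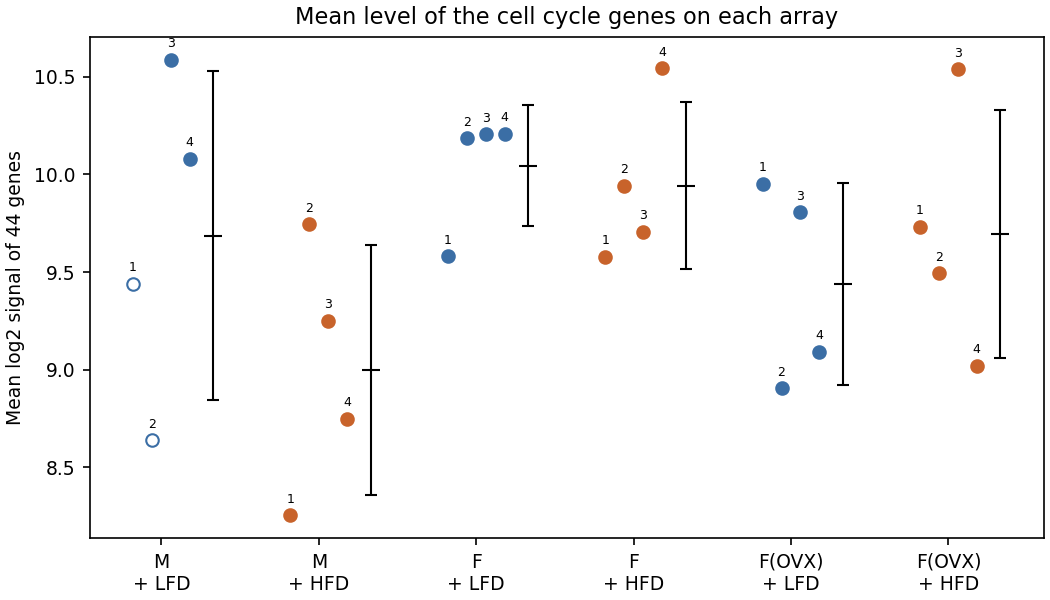
Mean log2 signal of the 44 cell cycle genes on each of the 24 arrays, with replicate numbers above the points, LFD in blue and HFD in orange; bars give the group mean and SD (n = 4) and open circles the 2 M + LFD arrays low in Hoxb13. The arrays of M + LFD span 8.64 to 10.59, and in each of M, F and F(OVX) the diets overlap.

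The genes moved together within groups. After each group's mean was subtracted, the median Pearson r over the 946 pairs of the 44 genes was 0.83 (Spearman rho 0.81) over the 24 arrays, compared with 0.00 among 840 other genes taken at every 20th name. These values share the 24 arrays and their scaling and are given as a description. Pairs among 19 genes of mitosis (kinases, checkpoint, proteolysis, kinetochore, spindle and cytokinesis) had a median r of 0.94, pairs among 14 genes of replication (origin licensing, DNA synthesis and nucleotide supply) of 0.82, and pairs of 1 gene from each set of 0.70. Without M + LFD replicates 1 and 2 these were 0.93, 0.81 and 0.61. With Mki67, the antigen stained to count dividing cells, the genes closest over 24 arrays were Aurka (r = 0.96), the kinase of the spindle poles, Cenpf (0.96), a kinetochore protein, and Tpx2 (0.96), which activates Aurka at the spindle. The least close were Ccne1 (0.51), the cyclin of the G1 to S step, Cdc6 (0.55) and Cdt1 (0.56). Among the lists outside the 46 genes, the mean of 76 other mitosis genes followed the mean of the 44 with r = 0.98 and that of 48 other replication genes with r = 0.94. The mean of 10 epithelial genes had r = -0.16, and that of 15 genes of crypt stem and progenitor cells 0.06. The mean of the proximal Hox genes had r = -0.59 (-0.40 over 22 arrays without M + LFD replicates 1 and 2). That of 3 distal Hox genes had r = 0.16 over 24 arrays and -0.50 over the 22, so that over the 22 both lists moved against the 44 genes. Goblet cell genes followed the 44 genes with r = 0.52 (0.62 over the 22 arrays), and smooth muscle genes moved against them with r = -0.46 (-0.47). The share of probes well above background moved against the genes (r = -0.56, and -0.43 over 22 arrays without M + LFD replicates 1 and 2). The part of these lists and of this share in the differences between arrays was not tested.

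**Figure D2:**
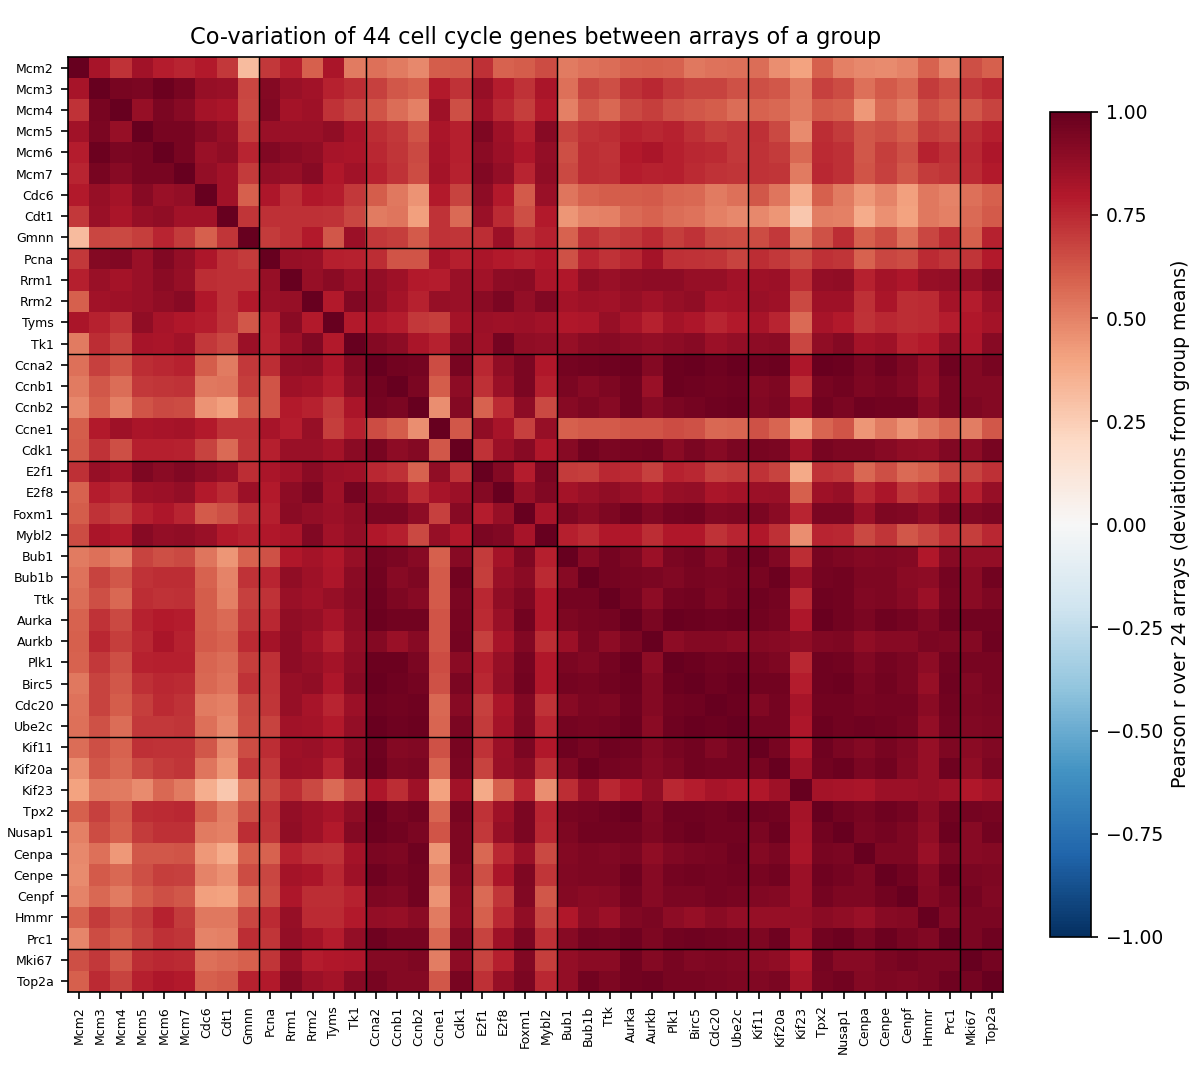
Pearson r between 44 cell cycle genes over 24 arrays, after subtraction of group means, with genes in the order of their roles and black lines between roles; red is positive and blue negative. Genes of mitosis form a dark block (median r 0.94), while Mcm2, Cdc6, Cdt1, Ccne1 and Kif23 are paler.

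In males, the first question was whether the high fat diet changed proliferation genes in the treated colon. All 45 genes tested had a lower mean in M + HFD than in M + LFD, and 0 of them passed the threshold in limma, where 4.24% of all 20515 genes passed it in either direction and 1.78% passed it as lower. At an unadjusted p under 0.05 the count was also 0, and the smallest adjusted p was 0.83. The median log2 fold change of the 45 genes was -0.75, and that of all genes was 0.01. For none of the 45 genes did all HFD arrays lie below all LFD arrays, which 0.941% of all genes did. The genes vary together, so that 45 lower values are not 45 separate observations.

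Single arrays of Mki67, Rrm2 and Gmnn show this spread. Mki67 was at 11.49, 10.57, 12.83 and 12.16 in M + LFD and at 10.51, 11.77, 11.48 and 10.58 in M + HFD. The M + LFD arrays 3 and 4 lay above every M + HFD array, and arrays 1 and 2 lay among them. Its log2 fold change was -0.68 ± 0.49 (SE, n = 4 each; limma adjusted p = 0.89; exact permutation p = 0.26, two-sided). Rrm2 had the largest difference, -1.20 ± 0.62 (limma adjusted p = 0.83), with M + LFD at 10.29, 9.08, 11.30 and 10.98 and M + HFD at 7.85, 10.47, 9.41 and 9.13. Its lowest array was M + HFD replicate 1, and the groups overlapped. Gmnn, the inhibitor of relicensing, had the smallest unadjusted p in limma (0.076; adjusted 0.83), with 10.91, 10.75, 11.40 and 11.23 in M + LFD and 10.23, 10.99, 10.73 and 10.62 in M + HFD.

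By role, the fold changes in males were smallest where DNA replication is prepared and larger in mitosis. The spread within groups differed likewise. Over all groups the SD ran from 0.28 (Gmnn) to 0.65 (Mcm5) in licensing genes. It ran from 0.65 (Bub1b) to 0.83 (Ttk) in genes of mitotic kinases, checkpoint and proteolysis. The 9 origin licensing genes had a median log2 fold change of -0.44, from -0.51 in Cdc6 to -0.19 in Cdt1. Mcm6, a helicase subunit, was at 11.85, 11.79, 12.97 and 12.68 in M + LFD and at 11.33, 12.86, 11.77 and 11.59 in M + HFD (-0.44 ± 0.39, limma adjusted p = 0.91). Here M + HFD replicate 2 was the second highest of the 8 arrays. The 5 genes of DNA synthesis and nucleotide supply had a median of -0.47, with Pcna at -0.29 ± 0.30 and Tk1, which salvages thymidine, at -0.95 ± 0.52. Among the cyclins, Ccna2 was at -1.03 ± 0.56, Ccnb2 at -0.79 ± 0.44, Ccnb1 at -0.73 ± 0.48 and Ccne1 at -0.49 ± 0.50, and Cdk1 was at -0.79 ± 0.49. Ccnb1 ran from 8.72 to 10.78 in M + LFD and from 8.23 to 9.49 in M + HFD, and Cdk1 from 7.27 to 9.33 and from 6.70 to 8.43. The transcription factors of the cell cycle were at -0.49 ± 0.53 (E2f1), -0.82 ± 0.60 (E2f8, a repressor), -0.79 ± 0.55 (Foxm1) and -0.79 ± 0.56 (Mybl2). The 9 genes of mitotic kinases, checkpoint and proteolysis had a median of -0.88, with Bub1, a checkpoint kinase, at -0.98 ± 0.52, Birc5, a subunit of the chromosomal passenger complex, at -0.88 ± 0.57 and Aurka at -0.76 ± 0.57. The 11 genes of kinetochore, spindle and cytokinesis had a median of -0.73, from -1.02 in Kif11, the motor that separates spindle poles, to -0.34 in Hmmr. This Hmmr value is of the brightest probe, and its other probes were at -0.76 and -1.20 in M, the last well above background on 21 arrays. Each SE is of the fit of 4 against 4 arrays, and 0 of these genes passed the threshold.

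Without M + LFD replicates 1 and 2, the 2 arrays low in Hoxb13, 33 of 45 genes passed the threshold as lower in M + HFD, where 2.6% of all genes did, and the median log2 fold change was -1.44. These were all 9 mitotic kinase, checkpoint and proteolysis genes, all 11 of kinetochore, spindle and cytokinesis, Mki67 and Top2a, 4 of 5 of DNA synthesis and nucleotide supply (not Pcna), 4 of 5 cyclins and Cdk1 (not Ccne1), 2 of 4 transcription factors (E2f8 and Foxm1), and 1 of 9 licensing genes (Gmnn). For 32 of the 45 genes all 4 HFD arrays lay below both remaining LFD arrays, against 6.39% of all genes. Cenpf was at -1.51 ± 0.37 and Kif23, a motor of cytokinesis, at -1.35 ± 0.33. No gene of the 45 reached an adjusted p under 0.05, the smallest being 0.92. This comparison rests on 2 LFD arrays, replicates 3 and 4, whose means of the 44 genes were 10.59 and 10.08, and the exact permutation p of 4 against 2 arrays cannot go below 0.067. Leaving out M + LFD replicate 2 alone gave 28 genes past the threshold as lower (1.87% of all genes). Leaving out M + HFD replicate 2 alone gave 10 (1.62% of all genes), and these were Mcm2, Mcm3, Mcm5, Mcm6, Mcm7, Cdc6, Rrm2, Tk1, E2f1 and Mybl2, none of them a kinase, kinetochore or spindle gene. Leaving out single arrays of males in turn thus moved the count from 0 to 28.

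**Figure D3:**
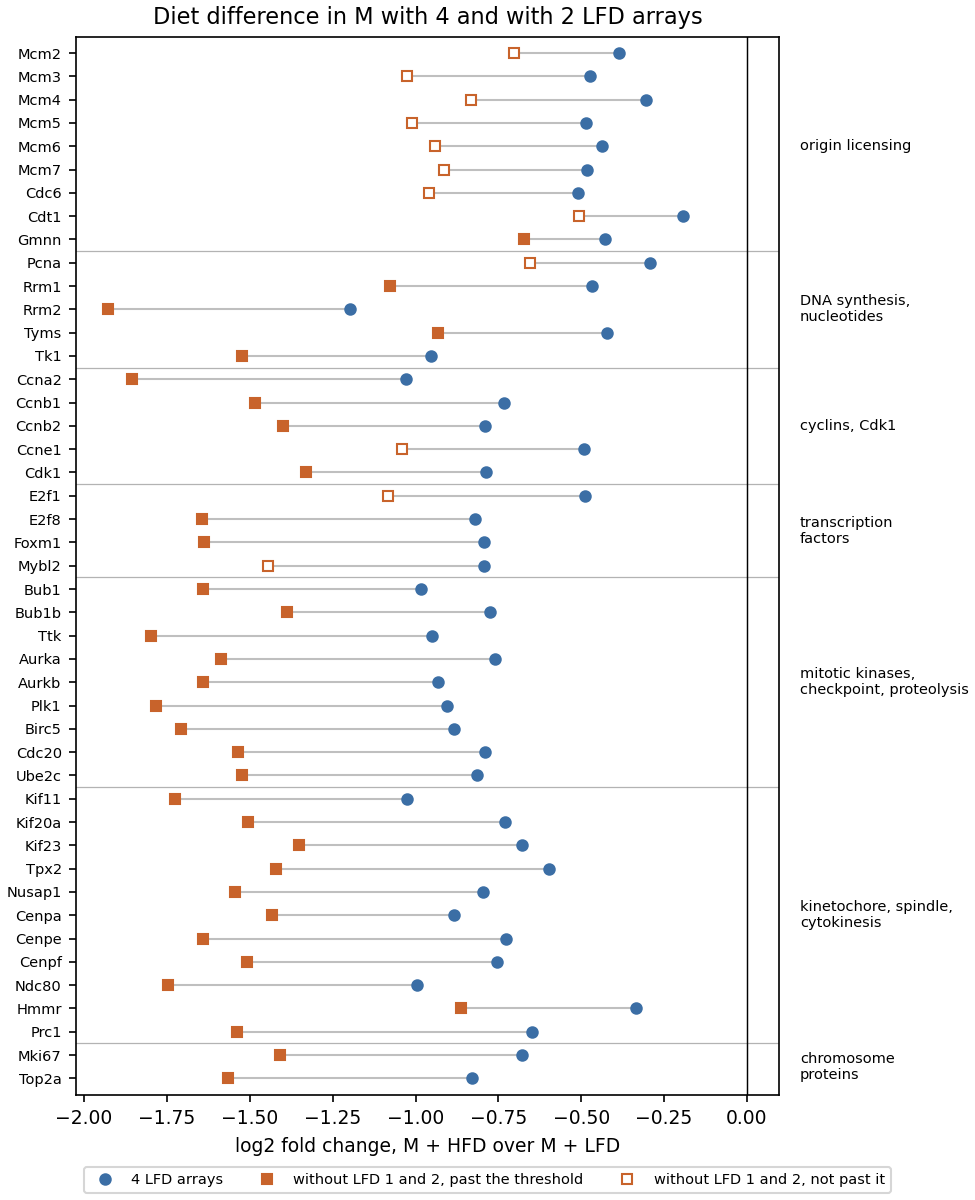
Log2 fold change of M + HFD over M + LFD for each of 45 genes with 4 LFD arrays (blue circles) and without LFD replicates 1 and 2 (orange squares, filled where the gene passed the threshold), in the order of roles. Every gene moved to the left without the 2 arrays, and filled squares number 33, among them all genes of the mitotic kinase and kinetochore groups.

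In females, origin licensing and mitosis lay on opposite sides of 0. All 9 licensing genes had a higher mean in F + HFD than in F + LFD (median log2 fold change 0.29), and all 9 genes of mitotic kinases, checkpoint and proteolysis (median -0.28), all 11 of kinetochore, spindle and cytokinesis (-0.31), Mki67 and Top2a had a lower one. None of the 45 genes passed the threshold in limma, which 1.2% of all 22085 genes did in either direction. At an unadjusted p under 0.05 the count was 0, and the smallest adjusted p was 0.99. The median over the 45 genes was -0.22, and over all genes 0.00. Mcm5 had the largest difference of the licensing genes, 0.39 ± 0.27, and Mcm2 was at 0.31 ± 0.18. E2f1, a factor that drives replication genes, was at 0.39 ± 0.28 and Ccne1 at 0.33 ± 0.38. Aurkb, the kinase of the chromosomal passenger complex, was at -0.52 ± 0.35, Kif23 at -0.50 ± 0.33, Top2a, which untangles chromosomes, at -0.46 ± 0.34 and Cdk1 at -0.42 ± 0.29. These signs are those of the brightest probe. A second Kif23 probe was at 0.22 in F, and the other Hmmr probes were at 0.28 and 0.24. Of 12 genes with several probes well above background on all arrays, 10 had 1 sign in F, and Kif23 and Hmmr did not. The promoter sets largely follow the roles. The 5 genes with an E2F form and no CHR all had a higher mean in F + HFD (median 0.30), and 18 of 19 with a CHR and no E2F form had a lower one (median -0.31). In M the same sets had medians of -0.47 and -0.79, and in F(OVX) of 0.27 and 0.28.

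The values by array show the same parting. Mcm6 was at 11.85, 12.62, 12.42 and 12.81 in F + LFD and at 12.33, 12.65, 12.83 and 12.95 in F + HFD. Mki67 was at 11.93, 12.20, 12.96 and 12.40 in F + LFD and at 11.70, 11.91, 12.01 and 12.58 in F + HFD. The groups overlapped for both genes. Between F arrays of the same replicate number, which deviated together over all genes, Mcm6 and the mean of the 9 licensing genes were higher with HFD in 4 of 4 pairs, and Mki67 was lower in 3 of 4. No label pairs these arrays, so that the pairs are only a description, and in replicate 2 Mcm6 moved only from 12.62 to 12.65. With the replicate number as a block, 0 of the 45 genes passed the threshold. The mean of 14 replication genes minus the mean of 19 mitosis genes was 0.644, 0.974, 0.535 and 1.003 in F + LFD and 1.334, 1.516, 1.625 and 0.657 in F + HFD. Its size has no meaning across probes, and only its change between arrays is read. Replicates 1 to 3 of F + HFD lay above every F + LFD array, and replicate 4 lay with them. F + HFD replicate 4 had the highest mean of the 44 genes in its group (10.54), and Cdk1 was at 9.45 on it, against 8.27, 8.28 and 8.21 on the other F + HFD arrays. Without this array, 13 of 45 genes passed the threshold as lower, where 1.39% of all genes did, none of them a licensing or DNA synthesis gene (Kif23, Aurkb, Cdk1, Cenpa, Cenpf, Ccnb2, Prc1, Top2a, Nusap1, Bub1b, Ube2c, Birc5 and Cdc20), with a smallest adjusted p of 0.91. Then 8 of the 9 licensing genes were still higher in F + HFD, with 0 of them past the threshold, and Gmnn was at -0.06. In M the replication minus mitosis value was 1.13, 1.91, 0.83 and 1.12 with LFD and 1.69, 2.08, 0.83 and 1.52 with HFD, and in F(OVX) 0.73, 1.36, 0.92 and 1.66 with LFD and 0.71, 1.53, 0.79 and 1.52 with HFD. In F(OVX) the 2 diets covered nearly the same range. In M the ranges overlapped, and without LFD replicates 1 and 2 the HFD replicates 1, 2 and 4 lay above both remaining LFD arrays, as HFD replicates 1 to 3 did in F.

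**Figure D4:**
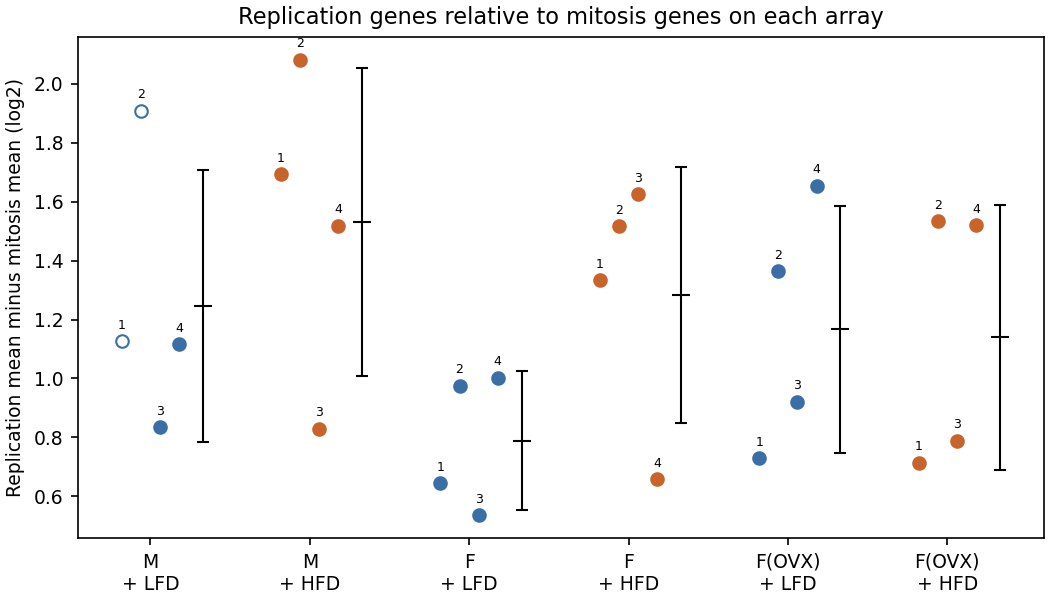
Mean log2 signal of 14 replication genes minus that of 19 mitosis genes on each array, with replicate numbers above the points, LFD in blue and HFD in orange; bars give the group mean and SD (n = 4) and open circles the 2 M + LFD arrays low in Hoxb13. In F + HFD replicates 1 to 3 lie at 1.334 to 1.625, above the F + LFD arrays (0.535 to 1.003), and replicate 4 lies at 0.657.

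In ovariectomized females, 42 of 45 genes had a higher mean with HFD and 0 passed the threshold in limma, which 2.18% of all 19211 genes did in either direction. At an unadjusted p under 0.05 the count was 0, and the median log2 fold change was 0.28. The 3 lower genes were Ndc80, a kinetochore protein (-0.26 ± 0.45), Tyms (-0.13 ± 0.29) and Ttk, a checkpoint kinase (-0.02 ± 0.54). Mcm3 had the largest difference (0.56 ± 0.30, limma adjusted p = 0.9998), and all 9 licensing genes were higher (median 0.27). Mki67 was at 12.41, 11.06, 11.61 and 11.05 in F(OVX) + LFD and at 12.26, 11.36, 12.57 and 11.04 in F(OVX) + HFD (0.28 ± 0.41). The lowest arrays of both diets were nearly level, and the groups overlapped for every one of the 45 genes. The highest array was F(OVX) + HFD replicate 3 for Mki67, Mcm6 (12.90) and Rrm2 (11.13), and without it the median of the 45 genes was 0.02.

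The levels of the other genes tracked through all 6 groups had the same form. Pcna, the replication clamp, ran from 11.99 to 13.16 (LFD) and 11.99 to 12.98 (HFD) in M, from 12.28 to 12.95 and 12.44 to 12.88 in F, and from 12.18 to 12.71 and 12.26 to 13.34 in F(OVX). Ccne1 ran from 8.44 to 9.80 (LFD) and 7.82 to 9.94 (HFD) in M, from 8.29 to 9.68 and 8.89 to 10.16 in F, and from 7.91 to 9.38 and 8.02 to 10.39 in F(OVX). For these 2 genes every LFD range overlapped its HFD range. Top2a ran from 9.50 to 11.93 (LFD) and 9.18 to 10.79 (HFD) in M, from 10.98 to 11.88 and 10.38 to 11.97 in F, and from 10.14 to 11.15 and 9.89 to 11.86 in F(OVX). Aurka ran from 9.40 to 11.97 (LFD) and 9.22 to 10.69 (HFD) in M, from 10.84 to 11.61 and 10.59 to 11.82 in F, and from 9.91 to 11.39 and 10.18 to 11.85 in F(OVX). The widest ranges of both lay in M + LFD. Birc5 ran from 10.81 to 13.28 (LFD) and 10.44 to 12.03 (HFD) in M, from 12.36 to 13.21 and 12.15 to 13.58 in F, and from 11.37 to 12.81 and 11.61 to 13.39 in F(OVX). Foxm1, a factor for genes of mitosis, ran from 6.42 to 8.79 (LFD) and 6.22 to 7.83 (HFD) in M, from 7.53 to 8.36 and 7.33 to 8.70 in F, and from 6.91 to 7.92 and 6.66 to 8.70 in F(OVX). With all 4 arrays a group, the diets overlapped for each of the 6 genes in M, F and F(OVX). Without M + LFD replicates 1 and 2, both remaining LFD arrays lay above every HFD array in M for Top2a, Aurka, Birc5 and Foxm1.

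**Figure D5:**
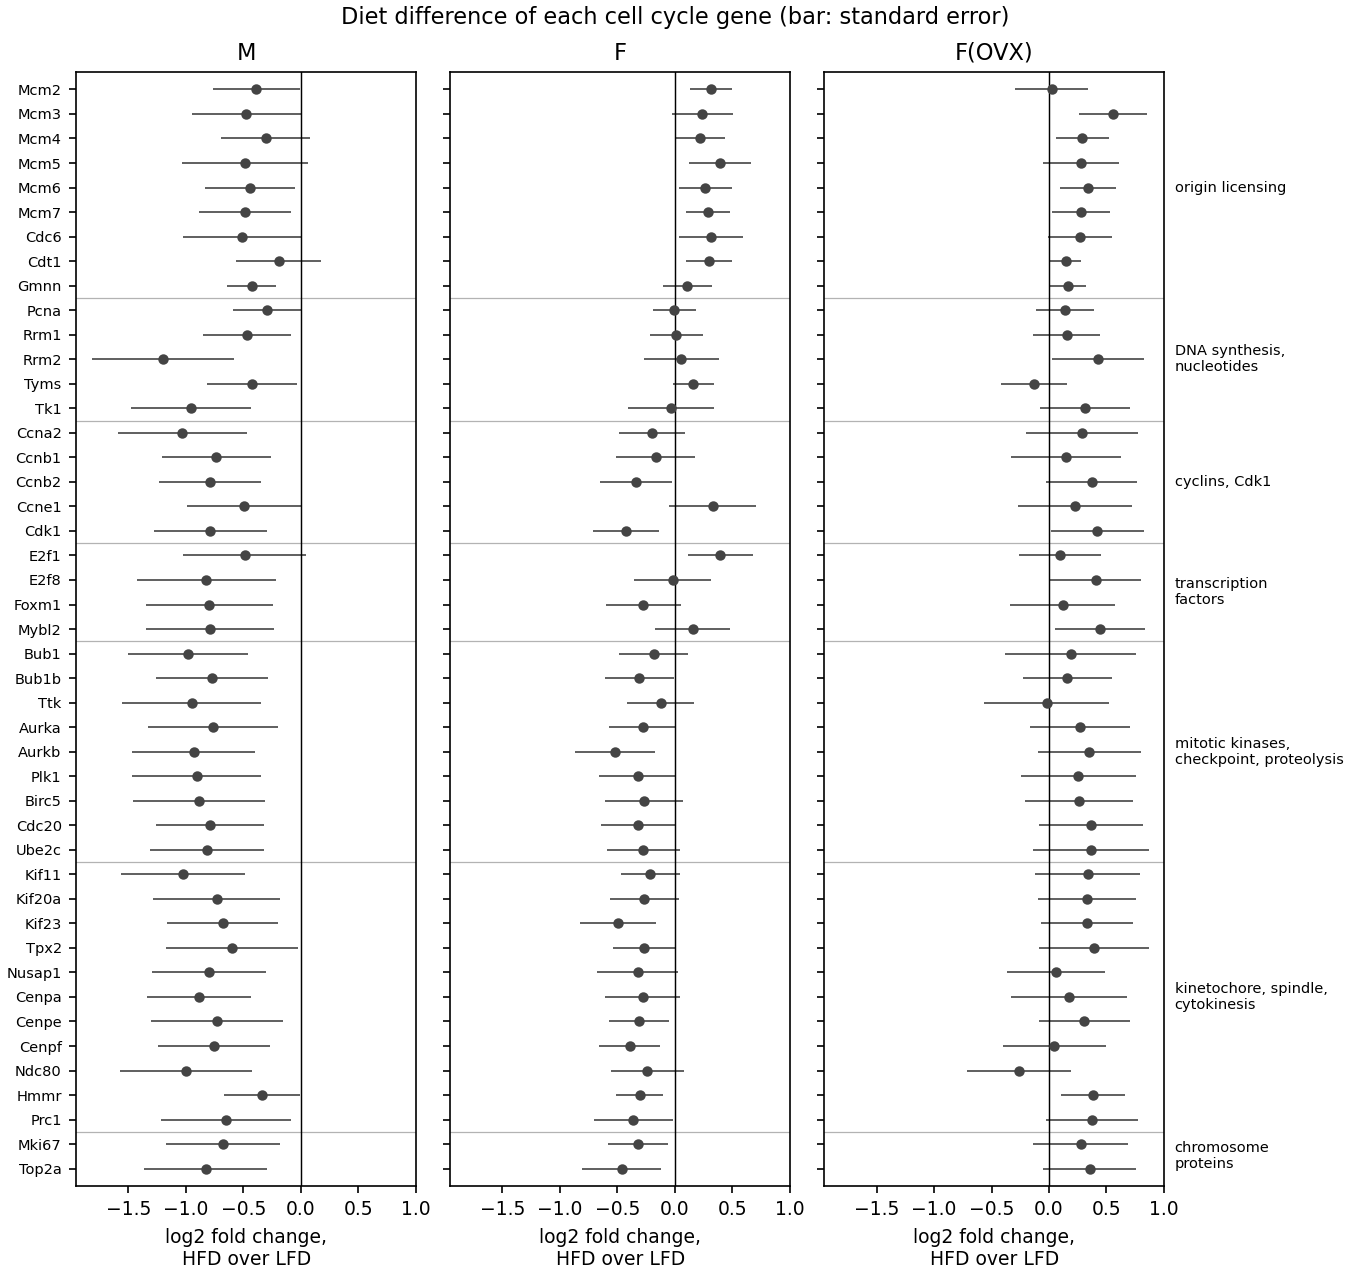
Log2 fold change of HFD over LFD for 45 genes (points, with bars of 1 SE from limma, 4 arrays each) in M, F and F(OVX), in the order of roles. In M every gene lies left of 0, in F the licensing genes lie right and the mitosis genes left of it, and in F(OVX) 42 of 45 lie right.

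Whether the diet acted differently by sex or surgery was tested on the differences between the diet effects, in 1 fit of all 24 arrays. The diet effect in M minus that in F was below 0 for all 45 genes (median -0.54), and 0 of them passed the threshold, which 2.94% of all 22383 genes did in either direction; the count at an unadjusted p under 0.05 was 0. The effect in M minus that in F(OVX) was also below 0 for all 45 genes (median -0.99), and 2 passed, Rrm2 (-1.62 ± 0.73, limma adjusted p = 0.65) and Gmnn (-0.59 ± 0.28, adjusted p = 0.68), where 3.02% of all genes passed as lower. The effect in F(OVX) minus that in F was above 0 for 36 of 45 genes (median 0.39), with 0 past the threshold (1.47% of all genes in either direction) and 0 at an unadjusted p under 0.05. The comparisons with M share the M arrays, so that their signs are not separate observations. Without M + LFD replicates 1 and 2, 15 genes passed as lower for M minus F (1.72% of all genes), led by Rrm2 (-1.98 ± 0.74), Mcm6 (-1.21 ± 0.46) and Gmnn (-0.78 ± 0.30), and 37 for M minus F(OVX) (2.62% of all genes), with smallest adjusted p values of 0.998 and 0.89. Averaged over M, F and F(OVX), 0 genes passed (0.782% of all genes in either direction) and 0 had an unadjusted p under 0.05. Without those 2 arrays 8 passed as lower (1.07% of all genes), namely Ndc80, Cenpf, Nusap1, Foxm1, Plk1, Ttk, Aurkb and Ccna2, at a smallest adjusted p of 0.9999.

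Over both diets, the mean levels were lower in males than in females. Of 45 genes 44, all but Cdc6 (0.11 ± 0.29), had a lower mean in M. The median log2 difference was -0.68, and 23 passed the threshold as lower, where 2.82% of all genes did. Ccnb2, a cyclin of mitosis, had the smallest unadjusted p (-1.01 ± 0.30, limma adjusted p = 0.077), and its arrays ran from 9.84 to 12.19 in M and from 11.30 to 12.65 in F. The 23 genes were 7 of 9 mitotic kinase, checkpoint and proteolysis genes, 7 of 11 of kinetochore, spindle and cytokinesis, 4 of 5 cyclins and Cdk1, Mki67, Top2a, Tk1, Mcm3 and Mcm5, and no adjusted p was under 0.05. Without M + LFD replicates 1 and 2, Ccnb2 alone passed (2.1% of all genes did as lower), at -0.71 ± 0.31 with an adjusted p of 0.33, and the median was -0.33. Ovariectomized females lay below females for all 45 genes (median -0.43), with 0 past the threshold (2.18% of all genes in either direction) and 0 at an unadjusted p under 0.05. Other cell types moved beside these differences. In M against F, 9 of 9 smooth muscle genes (median -0.46), 9 of 9 fibroblast genes (-0.34) and 8 of 8 B cell and germinal center genes (-1.50) had a lower mean, and 3 of 9 T cell genes passed as lower. The B cell median was -0.76 without M + LFD replicates 1 and 2, and 3 T cell genes passed as lower. In F(OVX) against F, 9 of 9 smooth muscle genes had a lower mean (median -0.62), 6 of them past the threshold, as did 9 of 9 fibroblast genes (-0.46), with 0 past it. The part of these cell types was not tested. Both comparisons were made between slides, and slide and sex or surgery cannot be told apart.

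The rest of the cell cycle program was read from other lists. Of 76 other mitosis genes tested in M, 75 had a lower mean with HFD (median -0.74) and 7 passed as lower, of which Anln, a scaffold of the cleavage furrow, was at -1.10 ± 0.47, Fam83d, a spindle protein, at -0.95 ± 0.29, Cenpu, of the kinetochore, at -0.94 ± 0.32, Cep55, which acts in the final cut between daughter cells, at -0.81 ± 0.28, and Fbxo5, which restrains the anaphase promoting complex, at -0.79 ± 0.33, each with a limma adjusted p of 0.80. Of 48 other replication genes 43 were lower (median -0.38), and Pola2, a subunit of the primase complex, passed (-0.68 ± 0.22, adjusted p = 0.80), beside 1.78% of all genes that passed as lower. Without M + LFD replicates 1 and 2, 64 of the 76 mitosis genes (median -1.39) and 11 of the 48 replication genes (median -0.68) passed as lower, against 2.6% of all genes, with a smallest adjusted p of 0.92. The 14 G1 cyclins and kinases were split, with 7 higher and 7 lower (median 0.01), and 0 passed. Without the 2 arrays 11 were lower (median -0.24) and 0 passed. Ccnd1, the cyclin that starts the cycle, was at 0.07 ± 0.36 and Myc at 0.21 ± 0.35. Of 29 inhibitors and arrest genes 16 were lower, and Cdkn2c, an inhibitor of Cdk4 and Cdk6, passed as lower (-0.69 ± 0.28). Without the 2 arrays 3 passed as lower and 2 as higher, Cdkn2c (-0.92 ± 0.35) and Cdkn1a (0.89 ± 0.36) among them. Cdkn1a, the p53 target that halts the cycle, was at 12.13, 12.15, 10.86 and 11.56 in M + LFD and at 12.18, 11.41, 12.43 and 12.39 in M + HFD (0.42 ± 0.34). The lowest of the 8 was M + LFD replicate 3, on which the cell cycle genes were highest. In F, 36 of 48 other replication genes were higher (median 0.11) and 67 of 77 other mitosis genes lower (median -0.18), with 0 of either list past the threshold. In F, Btg2, an antiproliferative gene, passed as lower (-0.66 ± 0.23, adjusted p = 0.99), and in F(OVX) Tob1, a gene of the same family, did (-0.62 ± 0.26, adjusted p = 0.9998).

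Genes of other cell types moved beside the cell cycle genes in some comparisons. In M, 3 genes of crypt stem and progenitor cells passed the threshold, at a limma adjusted p of 0.80 each. Lgr5, the marker of crypt base stem cells, passed as higher (0.73 ± 0.28). Smoc2, expressed in the same cells, also passed as higher (0.81 ± 0.34), and Cd44 passed as lower (-1.07 ± 0.28). Of the 15 genes of this list tested, 9 were higher and 6 lower (median 0.10). Over all genes in M, 2.46% passed as higher and 1.78% as lower. Lgr5 was at 7.55, 6.63, 6.34 and 7.21 in M + LFD and at 7.64, 7.90, 7.31 and 7.82 in M + HFD. When M + LFD replicates 1 and 2 were left out, Lgr5 (0.89 ± 0.30) and Cd44 (-0.84 ± 0.34) passed and Smoc2 (0.26 ± 0.29) did not. All 9 T cell genes tested were lower in M + HFD, 2 of them past the threshold (Cd8b1 at -1.26 ± 0.47 and Cd3g at -0.65 ± 0.23), and the mean of the list ran from 8.20 to 8.69 in M + LFD and from 7.53 to 7.96 in M + HFD, without overlap. Without the 2 arrays 8 of 9 were lower (median -0.44) and 0 passed. The list of B cells and germinal centers, which hold dividing cells of their own, ran from 5.59 to 9.01 in M + LFD and from 5.49 to 9.43 in M + HFD, and the median of its 6 genes tested was 0.73, or -0.54 without the 2 arrays.

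Among absorptive cell genes in M, the ion transporters Atp12a (5.12 ± 1.46) and Slc26a3 (1.099 ± 0.317) passed as higher. Among epithelial genes Cdx2 (-1.75 ± 0.52), a transcription factor of intestinal identity, passed as lower. The limma adjusted p of each was 0.80. Neither list moved 1 way as a whole. Of 13 absorptive genes tested 7 were higher and 6 lower (median 0.005), and of 10 epithelial genes 7 were higher and 3 lower (median 0.03). Cidec, a lipid droplet gene of fat cells, passed as lower (-3.06 ± 1.14). Of the genes of colon segments, Hoxd13 passed as higher (4.75 ± 1.40) and Hoxb6 as lower (-3.28 ± 1.43). None of these 6 named genes passed without M + LFD replicates 1 and 2, a comparison that rests on 2 LFD arrays. Atp12a was then at 3.002 ± 1.444, Slc26a3 at 1.002 ± 0.431 and Cdx2 at -1.25 ± 0.64. Cidec was at -1.98 ± 1.42, Hoxd13 at 2.91 ± 1.52 and Hoxb6 at -0.45 ± 0.46. The mean of 10 epithelial genes lay between 13.74 and 14.52 on all arrays.

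In F, where the genes of mitosis had a lower mean with HFD, all 9 smooth muscle genes tested had a higher one (median 0.50), 7 of 7 plasma cell genes a lower one (-0.43) and 7 of 8 myeloid genes a lower one (-0.52), with 0 of the 3 lists past the threshold. In F(OVX), all 9 smooth muscle genes were likewise higher with HFD (median 0.76) and 3 passed (Des, Cnn1 and Actg2), and the mean of the list ran from 10.09 to 11.50 with LFD and from 11.32 to 12.64 with HFD. Guca2a (0.88 ± 0.26), of absorptive cells, and Spdef (0.75 ± 0.30), a goblet cell factor, also passed as higher, and Jchain (-0.75 ± 0.30), of plasma cells, and Mrc1 (-0.67 ± 0.27), of macrophages, as lower, at an adjusted p of 0.9998. The part of these cell types in the differences of the cell cycle genes was not tested.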

How the data were processed

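Colon RNA was hybridized by the authors to 24 1-color Agilent mouse arrays, 4 in each of 6 groups taken from the sample labels, and spots were extracted with Feature Extraction 11.0.1.1, the version in the submitters' processing notes. The deposited values are linear spot intensities with background and spatial trend removed within each array. The authors also deposited median spot and background intensities and flags of 0 or 1 (other columns), of which the well above background and outlier flags were used. The study's methods give more animals per group than there are arrays.

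Control and outlier spots were removed, log2 was taken of the intensities, and the 24 arrays were brought to 1 distribution by quantile normalization. Probes were named by matching their accession to a gene table of GRCm38.p6 (32994 of 56605 probes, 58.3%), and a gene was read by its brightest probe. Of the 46 genes 20 had several probes. Where at least 2 were well above background on all arrays (12 genes), they had the same sign in all 12 in M, in 10 in F (not Hmmr and Kif23) and in 11 in F(OVX) (not Tyms). A gene entered a test if at least 1 of the groups in it was well above background throughout.

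Each diet comparison was fitted on its own 8 arrays with limma 3.58.1 in R 4.3.3, and contrasts between comparisons in 1 fit of 24 arrays. Exact permutation tests used 70 assignments of 4 against 4 arrays (smallest p 0.0286) or 15 of 4 against 2. The script was tested on simulated data. In F, arrays of the same replicate number deviated together (r = 0.28, 0.45, 0.58 and 0.26 over 16830 genes). In M the values were 0.01, -0.26, 0.01 and -0.03 and in F(OVX) 0.33, -0.09, 0.33 and 0.25. No label pairs the animals. The replicate number is also the column of the array on its slide, so that a pairing and a shared position cannot be told apart. Alternatives covered scaling, background correction, the filter on dim probes, the probe rule, the test and left-out arrays.

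Named genes are all 46, the genes past the threshold with the largest change in each other list (at most 5), and Hoxb13, Lgr5, Cdkn1a, Ccnd1 and Myc. The genes and lists were chosen with earlier results of these data known.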

Additional observations from a re-analysis of the deposited data

Results flagged for a closer look

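In 66 groups of 4 arrays examined, 3 had an array far from the other 3 of its group, and chance gives about 1 in 20 groups. Cdk1 was at 9.446 on F + HFD replicate 4 and between 8.209 and 8.28 on the other arrays of the group. Foxm1 was at 7.529 on F + LFD replicate 1 and between 8.319 and 8.363 on the others. The mean of the 44 cell cycle genes was 9.58 on the same F + LFD array and between 10.19 and 10.21 on the others. The diet effect in M minus that in F(OVX) passed the threshold as lower for Rrm2 (-1.624) and Gmnn (-0.5936). These were 2 of 45 genes, where 3.02% of all genes passed as lower. The threshold uses the unadjusted p in limma and the fold change, and neither difference had an adjusted p under 0.05.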

How the results depend on the processing

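The count of cell cycle genes past the threshold changed with single arrays more than with the processing. In the diet comparison of M it was 0, and 2 in 1 fit of all 24 arrays, 1 with the replicate block and 33 without M + LFD replicates 1 and 2. Without those 2 arrays it was 8 for the mean of the diets, 15 (median -1.22) for M minus F, 37 (median -1.69) for M minus F(OVX), and 1 in place of 23 for M against F. The count of 2 for M minus F(OVX) became 1 with 75th percentile scaling, 1 with normexp background correction and 9 with the replicate block. At an adjusted p under 0.05 it was 0, as for M against F. For F(OVX) against F the count was 1 with the mean of a gene's probes and 1 without the 2 arrays that had the fewest probes above background. The replicate block left the count at 0 in F, where arrays of the same number deviated together. In F(OVX) those of replicates 1, 3 and 4 did so too, and in M none did. No label pairs the samples in any group. The methods' t-test put 0 of the 45 genes past the study's thresholds in M, F and F(OVX), and therefore 0 after Benjamini-Hochberg adjustment. Leaving out 1 array at a time gave 0 to 28 genes (lowest without M + LFD replicate 1, highest without M + LFD replicate 2) and medians of -1.16 to -0.39 in M, 0 to 13 (highest without F + HFD replicate 4) and -0.47 to -0.07 in F, and 0 to 1 and 0.02 to 0.51 in F(OVX), lowest without F(OVX) + HFD replicate 3. It gave 0 to 1 (-0.37 to -0.12) for the mean, 0 to 11 (-0.91 to -0.27) for M minus F, 0 to 29 (-1.41 to -0.61) for M minus F(OVX), and 0 to 1 (0.10 to 0.67) for F(OVX) minus F. It gave 8 (without M + LFD replicate 2) to 31 (without M + LFD replicate 3; -0.85 to -0.52) for M against F, and 0 to 9 (highest without F(OVX) + HFD replicate 3; -0.58 to -0.30) for F(OVX) against F. Of all genes, 1.87% passed as lower in M without M + LFD replicate 2, and 1.39% in F without F + HFD replicate 4. With all arrays, 0.782% (mean of the diets) to 6.13% (M minus F(OVX)) of all genes passed in either direction. For the remaining alternatives the share over all genes is not given here, and a count of 1 or 2 genes is not read as a result. The causes of these changes were not tested. The number of arrays limits the precision.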
